A study of Mus musculus and Homo sapiens with 4 samples.

Results

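The genes described here are 10 genes that flank BUD23 in the Williams-Beuren region: DNAJC30, VPS37D, STX1A, ABHD11, CLDN3, CLDN4, MLXIPL, TBL2, BCL7B and BAZ1B. They are identified by gene symbol, among 18193 named genes on the mouse array and 19773 on the human array. All 10 had probe sets on both designs, 21 in mouse and 20 in human. A probe set is a group of short probes against a single transcript end. The question was whether lowering BUD23 went with a difference in the genes around it.

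The study measured total RNA of 4 stably infected cell lines on Affymetrix 3' arrays, with 1 array each. LM8, a mouse osteosarcoma line, and A375M, a human melanoma line, had each been infected with the retroviral vector pSIREN-RetroQ, either as its control or carrying a hairpin against Merm1/Wbscr22 of the same species. That gave the groups LM8/control, LM8/shRNA, A375M/control and A375M/shRNA. Merm1 and Wbscr22 are older names of BUD23, a methyltransferase of ribosomal RNA. All 4 lines carry a vector of this family, and the sources used here do not say whether each is a clone or a pool of infected cells.

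Values are log2 expression values made with RMA, which subtracts background, brings arrays to a shared distribution and combines the probes of each set. A difference is the log2 value of the knock-down array minus that of the control array of the same line. Without replicate arrays a difference within a line has neither an error nor a test, and precision is limited by the array number. The only yardstick within a line was technical: the median SD of the differences among the probe sets of a gene. It was taken over genes with 2 or more probe sets above the array median in at least 1 array. This SD was 0.12 for LM8 and 0.071 for A375M and is called the gauge here. Values identical in both arrays, 45.4% of human and 0.706% of mouse non-control probe sets, were left in. They give differences of 0, so the A375M gauge may be too small. The gauge does not cover variation from culture to culture. A gene was represented by its brightest probe set and was kept when that lay above the array median in at least 1 array of the line (5.29 and 5.28 in LM8, 4.64 and 4.67 in A375M). Dim probe sets carry mostly background.

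Heterozygous loss of the region causes Williams-Beuren syndrome, a developmental disorder with heart, growth and cognitive features. Its genes are not a pathway: they encode chromatin proteins, membrane and junction proteins and mitochondrial proteins that share a chromosomal neighbourhood. A hairpin RNA is processed to a short RNA that guides cleavage of the matching transcript.

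In the mouse RefSeq annotation (GRCm38.p6, chromosome 5) the 10 genes flank Bud23 without a gap. Cldn4, Cldn3, Abhd11 and Stx1a lie on the side of lower coordinates and Dnajc30, Vps37d, Mlxipl, Tbl2, Bcl7b and Baz1b on the other, with 0 other protein-coding genes between the outermost. The annotated spans of Bud23 and Dnajc30 overlap. RefSeq promoter windows matched 9 of the 10, and the 250 bases upstream of the annotated start were read from each. Those of 4 genes are shown, 5' to 3' on the gene's own strand with CG dinucleotides in capitals, because these genes lie at both ends of the block and their windows differ in CG number. They belong to the chromatin genes Baz1b (chr5:135187073-135187322, plus strand) and Bcl7b (chr5:135168122-135168371, plus strand) and to the claudin genes Cldn3 (chr5:134985964-134986213, plus strand) and Cldn4 (chr5:134946935-134947184, minus strand).
Baz1b: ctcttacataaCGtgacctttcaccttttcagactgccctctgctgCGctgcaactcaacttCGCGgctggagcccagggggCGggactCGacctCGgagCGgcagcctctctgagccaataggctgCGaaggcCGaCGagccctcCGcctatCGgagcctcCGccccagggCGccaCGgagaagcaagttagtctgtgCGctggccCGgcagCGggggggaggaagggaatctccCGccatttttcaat
Bcl7b: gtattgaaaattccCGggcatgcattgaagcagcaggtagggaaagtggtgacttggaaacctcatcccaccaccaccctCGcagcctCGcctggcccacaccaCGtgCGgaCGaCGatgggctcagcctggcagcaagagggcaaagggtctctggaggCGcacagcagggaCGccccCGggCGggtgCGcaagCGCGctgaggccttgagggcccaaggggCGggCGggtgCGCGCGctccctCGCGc
Cldn3: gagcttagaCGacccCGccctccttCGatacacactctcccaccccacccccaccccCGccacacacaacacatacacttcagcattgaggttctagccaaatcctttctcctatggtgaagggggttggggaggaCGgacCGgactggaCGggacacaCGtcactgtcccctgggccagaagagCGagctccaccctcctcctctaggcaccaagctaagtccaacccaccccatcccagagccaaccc
Cldn4: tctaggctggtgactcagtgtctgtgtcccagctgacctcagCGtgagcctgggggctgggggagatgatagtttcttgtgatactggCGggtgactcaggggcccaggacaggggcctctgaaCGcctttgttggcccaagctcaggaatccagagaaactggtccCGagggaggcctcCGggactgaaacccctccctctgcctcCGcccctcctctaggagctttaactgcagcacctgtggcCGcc

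Baz1b held 20 CG dinucleotides in this window and Bcl7b 21, against 9 in Cldn3 and 7 in Cldn4. The median over all 32851 windows of the table was 6, with quartiles of 2 and 16. Of the 12 windows of the 9 genes, which for Abhd11 and Mlxipl overlap or belong to alternative starts, 12 lay above that median. GC content ran from 53.2% to 72.8%, against a median of 52.4% over all windows. The GC box GGGCGG, searched on both strands as GGGCGG or CCGCCC, was present in 9 of the 12 windows and in 32.7% of all windows. The E-box CACGTG, the core of the element that MLXIPL binds, was present in an upstream window of Bcl7b and of Mlxipl itself and in 6.02% of all windows. The TATA motif TATAAA or TTTATA was in 0 of the 12 and in 12.4% of all. The window of Bud23 held 3 CG dinucleotides and no GC box of these letters. These matches describe letters in the windows and were not set against the expression differences.

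The target itself was lower in both knock-down arrays. Bud23 read 10.61 in LM8/control and 8.48 in LM8/shRNA, a difference of -2.13 or 4.37-fold. BUD23 read 10.70 in A375M/control and 8.38 in A375M/shRNA, a difference of -2.32 or 4.99-fold. Osteoblast markers lay above the array median in both LM8 arrays in 6 of the 6 genes found, out of 9 listed. Melanocyte markers did so in both A375M arrays in 8 of the 8 found, out of 9 listed. The same bar was passed by 4 of 9 melanocyte markers in LM8, and in A375M by 4 of 8 osteoblast and 4 of 5 leukocyte markers. It therefore does not tell cell types apart.

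None of the neighbours differed by as much as 1.5-fold in either line. In LM8, 8 of the 10 were kept, of which 5 were higher (53.8% of all kept genes were) and 3 lower (46%) in the knock-down array, with 0 at least 2-fold or 1.5-fold different. The median difference of the 8 was 0.070, against 0.015 over all 11646 kept genes. In A375M all 10 were kept, 1 was higher (29% of all kept genes were), 4 were lower (40.3%) and 5 had identical values in both arrays (30.8%), again with 0 at least 2-fold or 1.5-fold different. Their median difference was 0, as it was over all 13244 kept genes. Such counts say little about the neighbours as a set, since only 0.472% of kept genes in LM8 and 0.128% in A375M were at least 2-fold different, 2.47% and 0.748% at least 1.5-fold, and 0.0945% and 0.0378% at least 3-fold. Differences smaller than the gauge were found for 4 of the 8 in LM8, where 52.3% of kept genes had them, and for 8 of the 10 in A375M, where 58.9% did. Those 8 include the 5 with identical values, which are not measurements of no difference. All 8 kept members in LM8 and all 10 in A375M lay between the 5th and 95th percentiles of all kept genes. These percentiles were -0.33 and 0.34 in LM8 and -0.25 and 0.21 in A375M. By definition most kept genes lie between them, so this says little about the neighbours.

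**Figure D1:**
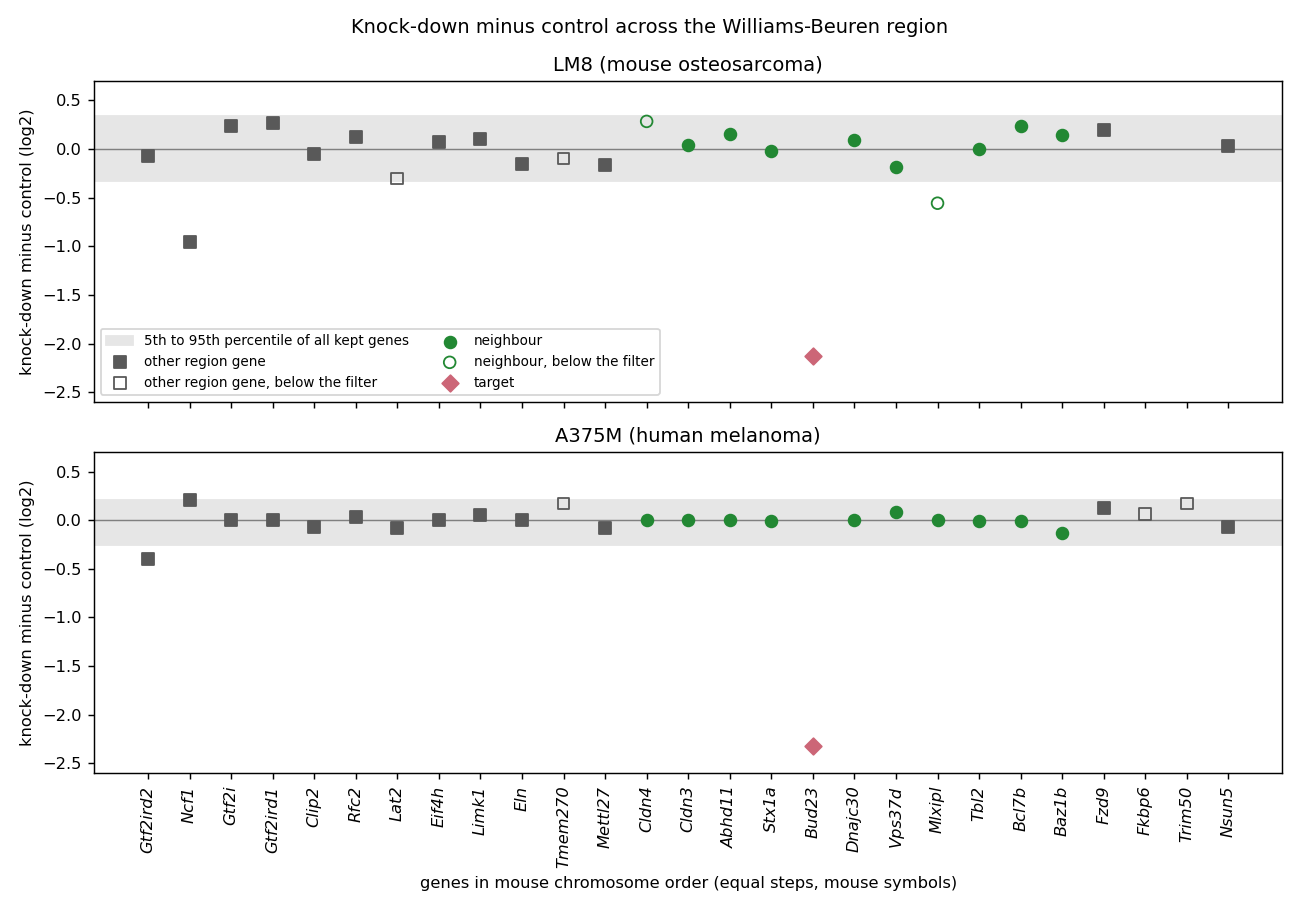
Knock-down minus control (log2, vertical axis) for the genes of the Williams-Beuren region in mouse chromosome order at equal steps, with LM8 above and A375M below; green circles are the 10 neighbours, the diamond is the target, squares are other genes of the region, open symbols are genes below the filter on low values, and the grey band spans the 5th to 95th percentiles of all kept genes. The target sits at -2.13 and -2.32, and every kept neighbour lies inside the band, which by definition holds most kept genes. The dim Mlxipl in LM8 lies below the band at -0.56.

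The genes directly next to the target came first. Dnajc30, which encodes a mitochondrial J-domain protein linked to ATP synthase and whose annotated span overlaps that of Bud23, read 9.84 in LM8/control and 9.93 in LM8/shRNA, a difference of 0.095. In A375M the bright DNAJC30 probe set read 8.39 in both arrays, a second read 5.70 and 5.59, a difference of -0.11, and a dim one read 3.61 in both. In LM8 the overlapping neighbour was thus within the gauge, beside a target lower by more than 2 log2 units. In A375M the bright value was identical in both arrays, which cannot be read as a measured absence of difference. The second human probe set exceeded the A375M gauge, which identical values may make too small. Stx1a, on the other side of the target, encodes the plasma membrane SNARE protein syntaxin 1A. It read 8.16 in LM8/control and 8.15 in LM8/shRNA, a difference of -0.018. Its other mouse probe set, close to the array median, read 5.49 and 5.43, a difference of -0.060. STX1A in A375M read 7.28 and 7.27, a difference of -0.011. All 3 STX1A values were below 0 and within the gauge.

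Vps37d encodes a subunit of ESCRT-I, which sorts ubiquitinated membrane proteins into multivesicular bodies. It read 7.18 in LM8/control and 7.0 in LM8/shRNA, a difference of -0.18 or 1.14-fold lower. VPS37D read 6.46 in A375M/control and 6.54 in A375M/shRNA, a difference of 0.083. Both differences exceeded the gauge of their line and had opposite signs, though identical values may make the A375M gauge too small. Abhd11 encodes a mitochondrial hydrolase that protects the lipoylated oxoglutarate dehydrogenase complex. It read 10.35 in LM8/control and 10.51 in LM8/shRNA, a difference of 0.15. In A375M the brightest of 3 ABHD11 probe sets read 8.16 in both arrays, and the others read 5.89 and 6.0 (difference 0.12) and 5.42 and 5.53 (difference 0.11). ABHD11 was therefore at 0 or higher on each probe set of both lines, by at most 1.11-fold.

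Cldn3 and Cldn4 encode claudins, the strand-forming proteins of epithelial tight junctions, and their values lay near or below the array medians. The 4 Cldn3 probe sets lay around the LM8 array median, from 5.03 to 5.50 in the control and from 4.93 to 5.54 in the knock-down array. Their differences ran from -0.10 to 0.30, and the brightest differed by 0.044. Cldn4 lay below the median at 4.56 in LM8/control and 4.85 in LM8/shRNA, which differ by 0.28 but carry mostly background. In A375M the CLDN3 probe sets read 5.23 and 3.47 and the CLDN4 probe sets 4.96 and 4.19, each identical in the control and the knock-down array. Epithelial markers on the same arrays lay above the array median in both arrays in 2 of 8 genes in LM8 and 4 of 8 in A375M, namely Epcam (6.52 in LM8/control and 6.80 in LM8/shRNA) and Grhl2 in LM8, and KRT18 (10.82 in A375M/control and 10.78 in A375M/shRNA), ESRP1, CDH3 and KRT8 in A375M. Cdh1, the epithelial cadherin gene, lay below it in both lines (4.54 and 3.91 in LM8, 2.75 in both A375M arrays). The log2 of their summed linear levels was 8.16 and 8.20 in LM8 and 11.07 and 11.06 in A375M. Their part in the claudin values was not tested.

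Mlxipl, the gene of the glucose-responsive transcription factor ChREBP, had the largest difference among the mouse members but lay below the filter. It read 4.33 in LM8/control and 3.78 in LM8/shRNA, a difference of -0.56 or 1.47-fold, with both values under the array median. MLXIPL read 5.50 in both A375M arrays. Hepatocyte markers, which mark a cell type in which this factor is prominent, exceeded the median in both arrays in 2 of 5 genes in LM8 and 1 of 5 in A375M.

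Tbl2 encodes a WD-repeat protein of the endoplasmic reticulum that binds the stress kinase PERK. All 4 mouse probe sets lay above the array median, and the brightest read 9.24 in both LM8 arrays, a difference of -0.0032. The others were lower by small amounts, 7.92 and 7.77 (difference -0.15), 7.64 and 7.62 (difference -0.021) and 6.40 and 6.28 (difference -0.12). TBL2 read 9.70 in A375M/control and 9.69 in A375M/shRNA, a difference of -0.0071, and a dim probe set read 3.28 in both arrays. Thus no Tbl2 probe set of either line was higher in the knock-down array, and 2 in LM8 were lower by more than the gauge.

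Bcl7b encodes a subunit of the BAF chromatin remodelling complex. It read 8.79 in LM8/control and 9.03 in LM8/shRNA, a difference of 0.24 or 1.18-fold, the highest among kept members. BCL7B read 7.92 in both A375M arrays, a difference of -0.0068. The mouse value rests on a single probe set.

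Baz1b, also called WSTF, encodes a bromodomain protein that works with the remodelling ATPase SMARCA5, and its probe sets disagreed. The brightest read 10.94 in LM8/control and 11.09 in LM8/shRNA, a difference of 0.15. The next read 7.10 and 6.87, a difference of -0.23, followed by 6.47 and 6.56 (difference 0.097) and 5.97 and 5.81 (difference -0.16). The remaining, dim probe set differed by -0.14, so 2 of the 5 were higher, 3 were lower, and the mean over all was -0.056. In A375M the brightest BAZ1B probe set read 9.31 and 9.18, a difference of -0.13, and the next read 7.04 and 6.96, a difference of -0.071. A probe set near the array median read 4.79 and 4.26 in control and knock-down, which gives -0.53, and a dim one read 3.13 in both. Human BAZ1B was thus lower or identical on each probe set, while the direction in LM8 depends on the probe set.

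**Figure D2:**
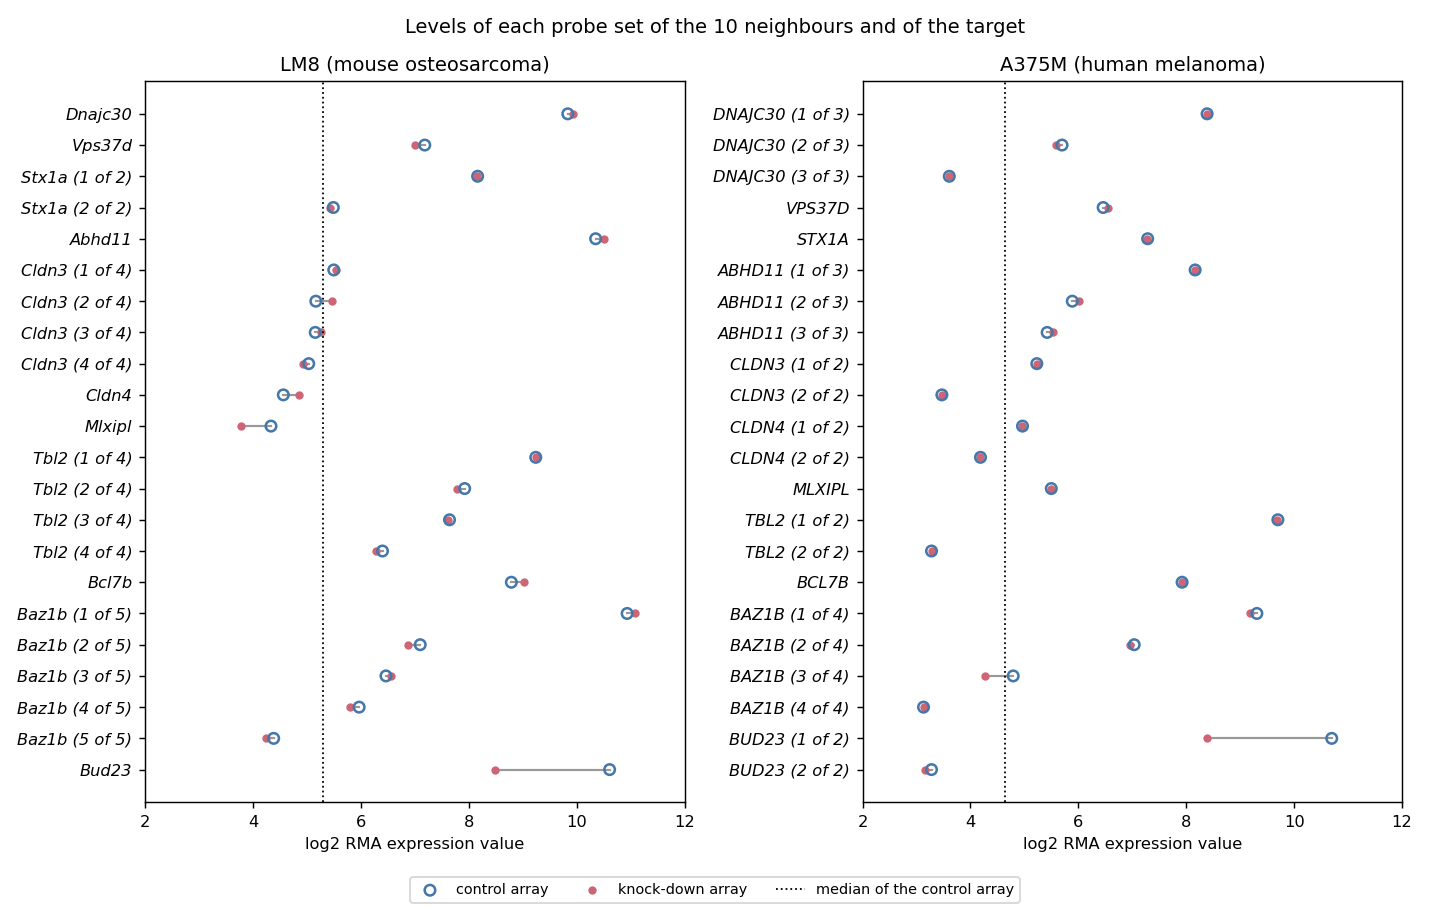
Log2 RMA value (horizontal axis) of every probe set of the 10 neighbours and of the target in the control array (open blue circles) and the knock-down array (red points) of LM8 (left) and A375M (right), with probe sets of a gene ordered by mean level and the control array median dotted. The brightest target probe set moves from 10.61 to 8.48 in LM8 and from 10.70 to 8.38 in A375M, while most neighbour pairs lie close together, and the widest neighbour gaps, Mlxipl at -0.56 in LM8 and BAZ1B at -0.53 in A375M, are those of probe sets below or near the array median.

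Identical values were common among the human members. Of their 20 probe sets 10 read exactly the same in both arrays, against 45.4% of 54613 non-control human probe sets and 0.706% of 45037 mouse ones. Among kept genes of A375M 30.8% were identical, and 5 of the 10 members were. An identical value is a property of the deposited table and cannot be read as a measured absence of difference.

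A limma fit of the mean of both differences, in which the line was a block and p-values were adjusted by Benjamini-Hochberg over all 8981 genes kept in both lines, was the only test the design allowed. In it the 2 lines, of different species, stand in for replicates. In that fit 0 of the 8 neighbours tested had an adjusted p under 0.05, against 1 gene of all (0.0111%), and 0 had an unadjusted p under 0.05, against 278 of all (3.1%). The single call was BUD23, at -2.22 ± 0.090 (SE, lower in both lines, adjusted p = 0.0169 by limma). BCL7B had the largest mean among the neighbours, 0.12 ± 0.097 (SE), higher in LM8 and at -0.0068 in A375M, with an adjusted p of 0.994 by limma. ABHD11 was at 0.077 ± 0.087 (SE), VPS37D at -0.051 ± 0.10, DNAJC30 at 0.048 ± 0.082, CLDN3 at 0.022 ± 0.080, STX1A at -0.015 ± 0.080, BAZ1B at 0.010 ± 0.10 and TBL2 at -0.0052 ± 0.080. For ABHD11, DNAJC30 and CLDN3 the A375M values were identical and entered the mean as 0, though not a measured absence of difference. The SEs of this fit are moderated with the variance of all genes and are not a gene's own spread between the lines. Adjusted p-values this high do not show that the neighbours were unaltered. BUD23, at -2.22 with an SE of 0.090, had an adjusted p of only 0.0169 by limma. A common difference many times its SE could therefore have been missed, and the count of 0 says little about the neighbours. The BUD23 call itself was lost without the filter on low values (adjusted p = 0.0790 by limma) and when a gene's probe sets were averaged (0.985), and without the block (1), with a range of 0.000414 to 1 over the alternatives that tested it. Without _x_at and _s_at probe sets BUD23 was not tested, since its bright human probe set is of the _s_at kind, and limma called 0 genes (223 at an unadjusted p under 0.05).

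Further out in the region the picture was similar, apart from Ncf1 in LM8 and GTF2IRD2 in A375M. Of 14 other genes of the region on the mouse array 12 were kept, 7 higher and 5 lower, with a median of 0.056 and 1 at least 1.5-fold lower. Of all kept LM8 genes 53.8% were higher, 46% lower and 2.47% at least 1.5-fold different in either direction. Ncf1, a subunit gene of the phagocyte NADPH oxidase near the far end of the region, read 7.74 in LM8/control and 6.78 in LM8/shRNA, a difference of -0.95 or 1.93-fold. Its other probe sets read 6.39 and 5.56 (difference -0.83) and 4.44 and 3.98 (difference -0.46), so all 3 were lower. Leukocyte markers exceeded the array median in both LM8 arrays in 0 of 5 genes, with a log2 summed level of 6.62 in the control and 6.50 in the knock-down array. They exceeded it in both A375M arrays in 4 of 5. In A375M the NCF1 probe set read 4.51 and 4.72, a difference of 0.21 at the array median. It passed the filter only through the knock-down array, and another that also matches its pseudogenes was not used. Of 16 other region genes on the human array 13 were kept, 4 higher, 5 lower and 4 identical, with a median of 0 and 0 at least 1.5-fold different. Of all kept A375M genes 29% were higher, 40.3% lower, 30.8% identical and 0.748% at least 1.5-fold different. The lowest was GTF2IRD2, a transcription factor gene named after its values were seen. It read 9.04 and 8.65, a difference of -0.40, with another probe set at -0.22. The value of -0.40 lay below the 5th percentile of all kept A375M genes, -0.25.

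Genes that work with the neighbours were then described by list. Among all kept genes of LM8, 53.8% were higher, 46% lower and 2.47% at least 1.5-fold different in either direction. In A375M 29% were higher, 40.3% lower, 30.8% identical and 0.748% at least 1.5-fold different. The counts of each list are to be read beside these shares. Among genes that MLXIPL is known to activate, 10 of 11 kept genes were higher and 1 was lower in LM8, where 53.8% of all kept genes were higher. Their median was 0.087, against 0.015 over all kept genes, and 2 were at least 1.5-fold higher, where 1.16% of all kept genes were. The list was chosen with earlier results of these data known, so these shares only describe it. Mlxipl itself lay below the filter in LM8. Txnip, whose product binds thioredoxin and limits glucose uptake, read 7.47 in LM8/control and 8.66 in LM8/shRNA, a difference of 1.19, and its other probe set read 5.36 and 6.08, a difference of 0.72. Arrdc4, an arrestin-domain gene of the same family, read 8.06 and 8.74, a difference of 0.68, and its other probe set 6.67 and 7.98, a difference of 1.31. The remaining kept targets lay between -0.090 (Pklr, the liver pyruvate kinase gene) and 0.13 (Acacb), with the fatty acid synthase gene Fasn at 0.12. That is about the span of the quartiles of all kept LM8 genes, -0.091 and 0.12. In A375M 3 of 10 were higher, 4 lower and 3 identical, with TXNIP at -0.036 and ARRDC4 at -0.097 on their brightest probe sets. The acetyl-CoA carboxylase gene ACACB was at 0.33 on its brightest probe set and ran from -0.057 to 0.39 over 7. The desaturase gene SCD was at -0.31 on its brightest probe set, and all 4 were lower, from -0.64 (1.55-fold) to -0.22. The difference between the lines was not tested.

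Partners of MLXIPL in its dimerisation network, which pairs MLX with MLXIPL or with its paralogue MLXIP, had a median of 0.16 in LM8 (9 kept, 6 higher, 3 lower) and 0 in A375M (8 kept, 2 higher, 3 lower, 3 identical). Mlxip, the paralogue known as MondoA, read 7.93 and 8.35 in LM8, a difference of 0.42, while MLXIP was identical in A375M. The mouse value rests on a single probe set. Mnt, a repressor of the network, was at 0.31 in LM8 on its brighter probe set and at -0.022 on the other. In A375M the largest values were those of MYC (0.12) and MXD1 (-0.11). None of these genes was 1.5-fold different.

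Chromatin partners were split between higher and lower values. BAF subunits, the partners of BCL7B, were 14 higher and 6 lower of 20 in LM8 (median 0.069, Smarcc2 at 0.29 and Brd9 at 0.22) and 8 higher, 11 lower and 1 identical of 20 in A375M (median -0.0092, ARID1B at -0.36 with 7 probe sets from -0.36 to 0.17, and BCL7A at 0.16). Partners of BAZ1B in ISWI and B-WICH complexes were 4 higher and 6 lower of 10 in LM8 (median -0.014). Smarca1, an ISWI ATPase gene, read 8.80 in LM8/control and 8.03 in LM8/shRNA, a difference of -0.77 on its single probe set. It was the only value of that list past 1.5-fold, while the nucleolar helicase gene Ddx21 was at 0.30. In A375M 3 were higher, 6 lower and 2 identical of 11 (median -0.012, MYO1C at -0.16 and MYBBP1A at 0.11).

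Membrane partners gave a similar spread. Of 11 kept syntaxin partners in LM8 4 were higher and 7 lower, with a median of -0.10. Stxbp3, which encodes the syntaxin-binding protein Munc18-3, read 8.97 in LM8/control and 8.29 in LM8/shRNA, a difference of -0.68. A dim probe set of it differed by -0.64. Stx3 was at -0.22 on its brightest probe set, with dim probe sets of both signs. In A375M 4 of 14 were higher, 7 lower and 3 identical (median -0.012). There the complexin gene CPLX2 was at -0.45 and SNAP25 at 0.34, both near the array median. CPLX2 passed the filter only through the control array. Neuronal markers, which overlap this list in SNAP25 and SYT1, exceeded the median in both arrays in 3 of 7 genes in LM8 and 4 of 7 in A375M. Only 3 of 20 other claudin and tight junction genes were kept in LM8, with Cldn5 at 0.29 and the scaffold gene Tjp1 at 0.17. Cldn5 read 5.02 and 5.31 around the array median and passed the filter only through the knock-down array. In A375M 11 of 19 were kept, of which 6 were higher, 3 lower and 2 identical (median 0.050). There CLDN6 was at -0.43 and OCLN at 0.30, the latter with probe sets from -0.32 to 0.30. ESCRT-I subunits were split 4 to 4 in LM8 (median 0.020, Mvb12b at 0.29 and Vps37a at -0.24, each with probe sets of both signs), and were 4 higher, 3 lower and 1 identical in A375M (median 0.033, TSG101 at 0.13 and UBAP1 at 0.080).

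ATP synthase subunits, the partners of DNAJC30, were 4 higher and 3 lower in LM8 (median 0.0080). Atp5h was at 0.097 and Atp5pb at -0.047, with another bright Atp5pb probe set at 0.017. In A375M 5 were higher and 2 lower (median 0.026, ATP5PD at 0.11 and ATP5F1C at -0.079). The oxoglutarate dehydrogenase and lipoylation list of ABHD11 was 5 higher and 5 lower in LM8 (median -0.0019). The lipoate synthase gene Lias was at 0.21, and Ogdh at 0.10 with another probe set at -0.012. In A375M 1 was higher, 7 lower and 1 identical (median -0.016). DLD was at -0.081 and PDHB at -0.080, each with another probe set that was identical in both arrays. Over all kept A375M genes 29% were higher and 40.3% lower. Genes related to TBL2 were 3 higher and 3 lower in LM8 (median 0.055, Tbl3 at 0.30 and the PERK gene Eif2ak3 at -0.20). The dim Eif2ak3 probe sets were at 0.31 and 0.097. In A375M 0 were higher, 4 lower and 3 identical (median -0.040), with the chaperone gene HSPA5 at -0.16 and EIF2AK3 at -0.086.

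**Figure D3:**
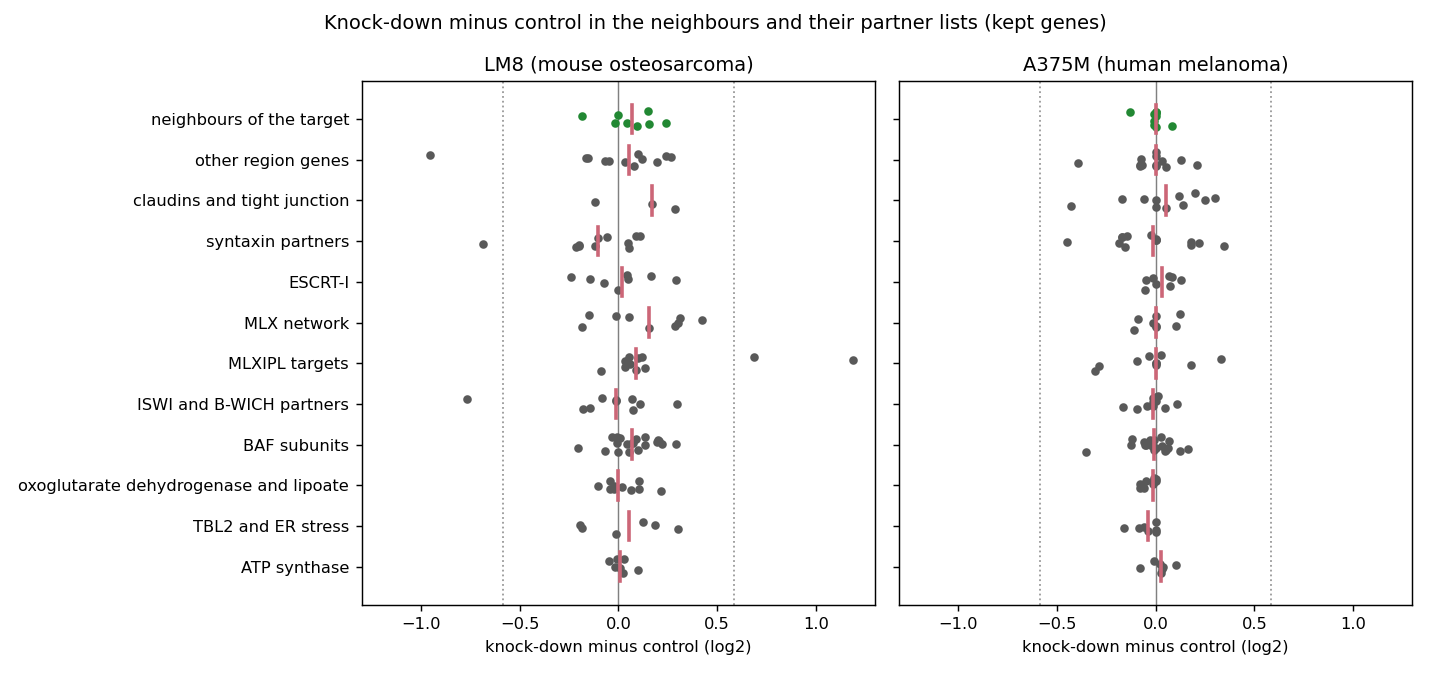
Knock-down minus control (log2, horizontal axis) of each kept gene of the neighbours (green) and of the lists of other region genes and partners (grey), in LM8 (left) and A375M (right), with red bars at list medians, dotted lines at 1.5-fold and points jittered vertically. The neighbours lie between -0.18 and 0.24 in LM8 and between -0.13 and 0.083 in A375M, and the values past 1.5-fold are those of Ncf1, Stxbp3, Smarca1, Arrdc4 and Txnip in LM8.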

How the data were processed

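Total RNA was labelled as biotinylated cRNA and hybridised to a mouse and a human Affymetrix design, per the labels' protocols. The deposited values are on a log2 scale, 1 per probe set, and the submitters' processing notes name RMA as the method. For its version, the software and whether arrays of a platform were processed together, nothing is given in the sources used here. The largest gap between the sorted values of both arrays was 0.064 for LM8 and 0.075 for A375M, so a global shift would not be seen. Probe sets were named through the supplied platform annotation, and only those with a single symbol were assigned to a gene. Levels were not compared between designs.

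The main threshold was 2-fold and the others 1.5-fold and 3-fold, on 11646 kept genes in LM8 and 13244 in A375M. The limma (version 3.58.1) fit used lmFit and eBayes on the within-line differences, in which the line pairs the arrays, as the labels name it. Alternatives were no filter, a 70th percentile filter, median centring, a second quantile normalization, subtraction of a loess curve (span 0.4), mean of probe sets, no _x_at or _s_at probe sets, 32 added to linear values, a trended prior and no block. The scripts were tested on simulated data. Named genes were all members, BUD23 and other region genes at least 1.5-fold different in either line. Up to 2 genes with the largest differences per partner list and line were added. Named outside this rule were Pklr, Acacb and Fasn in LM8, TXNIP, ARRDC4, MLXIP and GTF2IRD2 in A375M, and marker genes. The members and lists were chosen with earlier results of these data known. Promoter sequences are RefSeq's, GRCm38.p6.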

Additional observations from a re-analysis of the deposited data

Results flagged for a closer look

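Members kept in both lines whose differences had opposite signs were singled out, with 1 array per group and no test of the difference between the lines. Vps37d was at -0.18 in LM8 and VPS37D at 0.083 in A375M, so the LM8 value lay -0.27 from the A375M value. Bcl7b was at 0.24 in LM8 and BCL7B at -0.0068 in A375M, 0.25 apart, and the human sign turned after repeated quantile normalization and after removal of the loess curve. Baz1b was at 0.15 in LM8 and BAZ1B at -0.13 in A375M, 0.28 apart, and the mouse sign turned to -0.056 with the mean of the gene's probe sets.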

How the results depend on the processing

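The count of 0 neighbours at least 2-fold different in LM8 and in A375M was also found under each of the 8 alternatives for the values and under both other thresholds, and the count of 0 neighbours called by limma under each of its 10 alternatives, including the fit with no replicate block (0 of 8). The median of the neighbours stayed between 0.024 and 0.12 in LM8 and between -0.030 and 0.035 in A375M. Of 64 single-gene values of neighbours under an alternative in LM8 63 moved by less than the gauge, and of 71 in A375M 69 did. Those that moved more were Baz1b with the mean of its probe sets (-0.056) and ABHD11 with that mean (0.075) and without _x_at and _s_at probe sets (0.12). Signs also turned for BCL7B, TBL2, STX1A and Tbl2, whose differences were all within 0.011 of 0. Averaging both BUD23 probe sets of A375M, 1 of them dim, gave -1.22. Signal over background limits Cldn3, Cldn4 and Mlxipl in LM8.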

Other observations

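Among the human non-control probe sets 67.4% shared their exact control value with at least 1 other, against 13.1% of the mouse ones. Of the recurring human values 63.4% were identical in both arrays, against 8.38% of those that occurred once. Of the 20 human probe sets of the neighbours 11 had a recurring control value, of which 8 were identical in both arrays, and 9 had a value of their own, of which 2 were identical. The CLDN3 value of 5.23 was shared by 161 probe sets, the CLDN4 value of 4.96 by 248 and the MLXIPL value of 5.50 by 58. The dim TBL2 value of 3.28 was shared by 658 probe sets, among them the dim BUD23 probe set, and the dim BAZ1B value of 3.13 by 743. The brightest DNAJC30 probe set was identical in both arrays at 8.39 although no other probe set had that control value.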
